A study of Mus musculus with 10 samples.

Results

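The genes described here act in the early secretory pathway: Uggt1, Os9 and Calu in protein folding and quality control in the endoplasmic reticulum (ER), Sec23b and Gosr2 in transport between the ER and the Golgi, and St6galnac6 and Tmem167 in the Golgi. They were chosen from the authors' deposited tables of intronic polyadenylation (IPA) because their sites are listed there, so the listing and the deposited fold changes are descriptions and carry no new test. The 7 genes are among 1453 with a listed site, and they hold 31 of 2311 table rows, at 19 of 2074 distinct sites. An IPA site is a cleavage and polyadenylation site inside an intron, and RNA ending there lacks the downstream exons.

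Proteins entering the ER are folded with the help of glucosyltransferases and calcium-binding chaperones, and those that fail are marked for degradation. Folded cargo leaves in vesicles with a COPII coat and fuses with Golgi membranes through SNARE proteins, after which Golgi enzymes extend its sugar chains. The U1 small nuclear ribonucleoprotein recognises 5′ splice sites and also suppresses cleavage and polyadenylation at cryptic sites in introns.

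The study read polyadenylated 3′ ends in 10 libraries of mouse mammary tumour cells of the 4T1 family, 2 libraries for each of 5 groups. The groups were 4T1 cells given a morpholino antisense to U1 with a delivery reagent at 6 µl/mL (4T1-U1-ASO), 4T1 and 4T07 cells not given it, which the study calls metastatic, and 168FARN and 67NR cells, which it calls non-metastatic. The series design names a mock treatment as the control of the antisense oligonucleotide, whereas the 4T1 labels give no treatment. All groups grew in DMEM with 10% fetal bovine serum. Whether libraries of one group are separate cultures is stated in no label, so their spread may be technical.

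Usage is the percentage of site reads among the reads of the site and the gene's last exon together, given for each library and as mean ± SD over 2 libraries. With 2 libraries against 2, an exact two-sided permutation test of a single site cannot go below p = 0.333 and was not run; the model over all listed sites is given with the counts below. The libraries' peak lists held 2499475 to 3347776 reads, except that of 67NR replicate 2, which held 1427728 reads and covers 10 chromosomes. Many sites had under 20 reads in a library, which limits the precision of their usage.

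Among sites listed in 4T1-U1-ASO against 4T1, 6 of the 7 sites of these genes were used more in 4T1-U1-ASO, where 87.6% of all 1561 listed sites were higher and 12.4% lower. In 4T1 against 67NR, 1 was higher and 2 were lower in 4T1, beside 23.8% higher and 76.2% lower among all listed sites. In 4T07 against 67NR, 1 was higher and 4 were lower in 4T07, beside 17.8% and 82.2%. In 4T1 against 168FARN, 2 were higher and 5 were lower in 4T1, beside 24.7% and 75.3%. In 4T07 against 168FARN, 1 was higher and 8 were lower in 4T07, beside 20.4% and 79.6%. Over the 4 comparisons between lines, 19 of 24 rows were lower in the metastatic line, beside 79.3% of all 750 rows, so the share is close to that of listed sites in general. The comparisons share libraries, and rows of one gene share its last exon, so the rows are not independent. The usage of both groups did not overlap in 31 of 31 rows, beside 99.6% of all 2311 rows, and edgeR on the recovered reads called all 31, beside 100% of listed rows. Sites were listed by the authors on these same reads, so neither share adds to the listing.

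Calu encodes calumenin, a calcium-binding protein of the secretory pathway. It was listed at 5 sites in 4T1-U1-ASO against 4T1 and in no comparison between lines. Of the 1131 genes listed in that comparison, 15 had 5 or more sites. The Calu sites lie on the plus strand of chromosome 6 (mm9): site 1 at chr6:29306464-29306903, site 2 at chr6:29311294-29311753, site 3 at chr6:29315434-29315607, site 4 at chr6:29316034-29316207 and site 5 at chr6:29322464-29322673. They span 16000 bp from the start of the first to that of the last, and all were used more in 4T1-U1-ASO.

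At Calu site 4 the libraries held 73 and 71 site reads in 4T1-U1-ASO, against 18 and 28 in 4T1. Usage was 22.1% and 20.4% in 4T1-U1-ASO, against 5.03% and 6.01% in 4T1. The means were 21.2% ± 1.17 in 4T1-U1-ASO and 5.52% ± 0.693 in 4T1 (SD, n = 2 each), and the authors' deposited table gives a log2 fold change of 2.04 (SE 0.40). Both treated libraries lay above both 4T1 libraries. The groups lay apart in 99.6% of all 2311 listed rows, so this adds nothing to the listing.

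Site 5 was similar in level. Its reads numbered 62 and 71 in 4T1-U1-ASO and 20 and 17 in 4T1. That is a usage of 19.4% and 20.4% in 4T1-U1-ASO, against 5.56% and 3.74% in 4T1. The authors' deposited table lists it at 2.18 (SE 0.43).

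Mean usage was lower at sites 1 to 3 in both groups. Site 1 had 46 and 28 reads in 4T1-U1-ASO, against 14 and 11 in 4T1, or 12.2% ± 4.21 in 4T1-U1-ASO and 3.20% ± 1.06 in 4T1. Site 2 had 26 and 31 reads in 4T1-U1-ASO, against 16 and 19 in 4T1, or 9.61% ± 0.643 in 4T1-U1-ASO and 4.33% ± 0.238 in 4T1. Site 3 had 3 and 8 reads in 4T1-U1-ASO and none in either 4T1 library, where 0 reads allow a usage of up to 0.386%. Site 3 was the weakest of the 5 in both groups, and its usage of 1.98% ± 1.17 in 4T1-U1-ASO is 1.15% without replicate 2 of that group. The authors' deposited table gives log2 fold changes of 1.85 (SE 0.51) for site 1, 1.13 (SE 0.45) for site 2 and 2.83 (SE 0.77) for site 3. Where a group has no read, here and below, the deposited fold change is the authors' fitted value and bounds nothing.

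Part of the higher Calu usage came with fewer reads at the last exon. Normalized last-exon reads of Calu were 206 and 218 in 4T1-U1-ASO, against 471 and 453 in 4T1, a log2 change of -1.12. Normalized reads at site 2 averaged 22.6 in 4T1-U1-ASO and 20.9 in 4T1, a log2 change of 0.11 on the scale of normalized reads + 0.5. At sites 1, 4 and 5 the corresponding changes were 0.91, 1.07 and 1.20. Thus at sites 1, 2 and 4 the last exon changed more than the site did. In this comparison 75.2% of the 1131 listed genes had fewer normalized last-exon reads in 4T1-U1-ASO, with a median log2 change of -0.66. In bulk libraries, a drop in some of the cells and a smaller drop in all of them cannot be told apart.

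Calu sites also had reads in lines for which no table lists them. At site 5 the peak lists gave 41 and 45 reads in 4T07 and 27 and 19 in 168FARN, beside the 20 and 17 reads of the table in 4T1. At site 2 they gave 28 and 69 reads in 4T07, 19 and 30 in 168FARN and 20 in 67NR replicate 1. So both sites were in use without U1 block in lines other than 4T1. Peaks are absent from these lists at 13.1% to 54.1% of table sites that had reads, so a missing peak is no zero, and the usage of Calu in these lines is not given here.

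**Figure D1:**
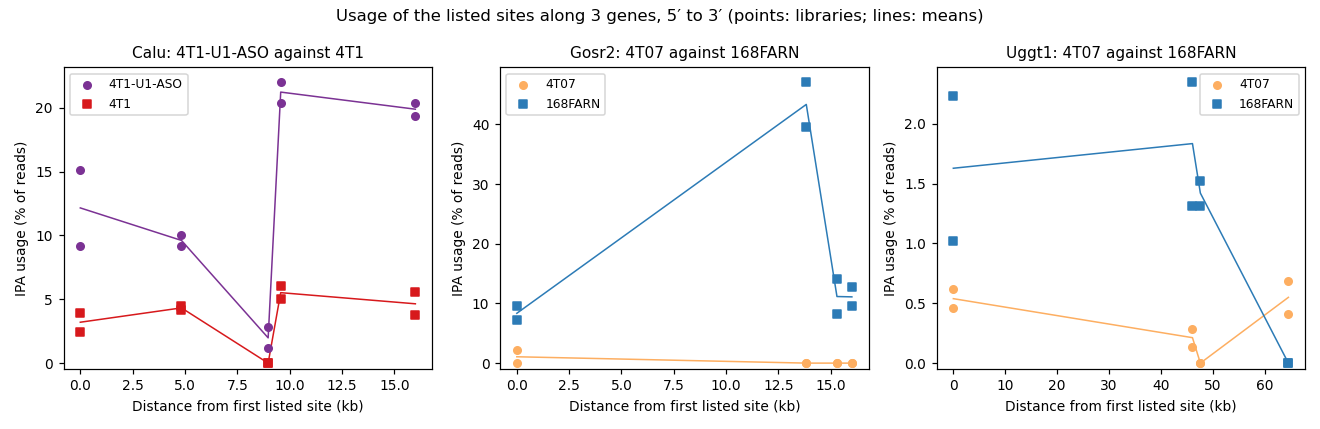
IPA usage in percent (vertical axis) at each listed site of Calu in 4T1-U1-ASO and 4T1, and of Gosr2 and Uggt1 in 4T07 and 168FARN, against distance from the first listed site in kb; points are libraries and lines join means of 2. Calu usage is higher at all 5 sites in 4T1-U1-ASO, Gosr2 usage is near 0 in 4T07, and Uggt1 shows the 4T07 line above 168FARN at its last site only.

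Uggt1 encodes a glucosyltransferase that senses misfolded glycoproteins and returns them to the calnexin and calreticulin cycle. Its 5 sites lie on the minus strand of chromosome 1 (mm9), in the order of transcription: site 1 at chr1:36272914-36273155, site 2 at chr1:36239316-36239482, site 3 at chr1:36226688-36227101, site 4 at chr1:36225251-36225580 and site 5 at chr1:36208475-36208626. They were minor ends of the gene in every group measured, with a usage of 2.35% or less in each library. Different sites were listed in different comparisons.

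Under U1 block only site 2 was listed. It had 10 and 8 reads in 4T1-U1-ASO, against 4 and 2 in 4T1. Usage was 1.94% and 1.62% in 4T1-U1-ASO, against 0.771% and 0.297% in 4T1. The authors' deposited table gives 1.48 (SE 0.62) with an adjusted p of 0.096, the closest of these genes' rows to the listing limit of 0.1, above which no site is listed. Normalized last-exon reads of Uggt1 averaged 393 in 4T1-U1-ASO and 704 in 4T1.

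Between lines, sites 3 and 4 had more reads in 168FARN than in either metastatic line. Site 4 had 0 reads in both 4T1 libraries and in both 4T07 libraries, against 7 and 9 in 168FARN. These zeros allow a usage of up to 0.253% in 4T1 and up to 0.0943% in 4T07, against 1.42% ± 0.148 in 168FARN. At site 3 the reads were 0 and 1 in 4T1 and 2 and 5 in 4T07, against 7 and 14 in 168FARN. Mean usage of site 3 was 0.0744% ± 0.105 in 4T1 and 0.213% ± 0.105 in 4T07, against 1.83% ± 0.733 in 168FARN. The authors' deposited table gives -2.19 (SE 0.54) for site 4 and -2.18 (SE 0.53) for site 3 in 4T1, and -3.24 (SE 0.56) and -2.38 (SE 0.48) in 4T07.

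Sites 1 and 5 were listed only in 4T07 against 168FARN, and they went opposite ways. Site 5, the last along the gene, had 6 and 12 reads in 4T07 and none in 168FARN, which allows up to 0.271% there. Its usage was 0.550% ± 0.192 in 4T07, and the authors' deposited table gives 1.62 (SE 0.58). Site 1 had 9 and 8 reads in 4T07, against 12 and 6 in 168FARN, a usage of 0.539% ± 0.114 in 4T07 and 1.63% ± 0.857 in 168FARN. The difference of -1.09 percentage points at site 1 becomes -0.484 without 168FARN replicate 1 and -1.70 without 168FARN replicate 2.

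The denominator moved strongly for Uggt1 between these lines. Its last exon had 1445 and 1738 reads in 4T07, against 525 and 581 in 168FARN, or 1602 in 4T07 and 534 in 168FARN as normalized means. At site 1 the normalized site reads were nearly equal, 8.67 in 4T07 and 8.84 in 168FARN, so the usage there differed through the last-exon reads. At sites 3 and 4 the site reads themselves were lower, 3.42 in 4T07 and 10.0 in 168FARN at site 3, and 0 in 4T07 and 7.70 in 168FARN at site 4. On the log2 scale used for Calu, the last exon changed by 1.59, beside -1.42 for site 3 and -4.03 for site 4. So the last exon changed more than the site at site 3, but not at site 4.

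Os9 encodes a lectin of the ER that recognises trimmed sugar chains and takes misfolded glycoproteins towards degradation. Its site, at chr10:126552157-126552396 on the minus strand (mm9), had few reads in both metastatic lines and many in 67NR. The site had 3 and 1 reads in 4T1, 0 and 2 in 4T07, and 105 and 90 in 67NR. Usage was 2.14% and 0.725% in 4T1 and 0 and 0.962% in 4T07, against 18.1% and 17.2% in 67NR. The authors' deposited table gives log2 fold changes of -2.54 (SE 0.49) in 4T1 and -3.39 (SE 0.50) in 4T07 against 67NR.

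Fewer Os9 reads ended at the last exon too in both metastatic lines. It had 137 reads in each 4T1 library and 186 and 206 in 4T07, against 474 and 433 in 67NR. After normalization the last exon was 2.62-fold lower in 4T1 and 2.03-fold lower in 4T07 than in 67NR. Normalized site reads were 36.9-fold lower in 4T1 than in 67NR, which becomes 84.4-fold without 4T1 replicate 1 and 23.6-fold without 4T1 replicate 2. For 4T07, with 2 site reads in all, no ratio is given. Os9 had no row against 168FARN or under U1 block.

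Sec23b encodes a subunit of the inner COPII coat, which buds vesicles from the ER. Its single site, at chr2:144386551-144386837 on the plus strand (mm9), was listed in 3 of the 4 comparisons between lines and was lower in the metastatic line in each. The site had 5 and 7 reads in 4T07, 12 and 18 in 4T1, 47 and 44 in 168FARN and 167 and 144 in 67NR. The last exon had 322 and 358 reads in 4T07, 258 and 248 in 4T1, 285 and 274 in 168FARN and 261 and 244 in 67NR. So site reads varied far more across the lines than last-exon reads.

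Usage of the Sec23b site was 1.53% and 1.92% in 4T07, 4.44% and 6.77% in 4T1, 14.2% and 13.8% in 168FARN and 39.0% and 37.1% in 67NR. In this order of lines, no library overlapped with a library of the next line. The order was taken from these same values at a site chosen for its listing, so it is a description and was not tested. Mean usage was 1.72% ± 0.275 in 4T07 and 5.61% ± 1.64 in 4T1, against 14.0% ± 0.226 in 168FARN and 38.1% ± 1.35 in 67NR (SD, n = 2 each). The authors' deposited table gives -2.77 (SE 0.41) for 4T1 against 67NR, -4.17 (SE 0.41) for 4T07 against 67NR and -2.68 (SE 0.42) for 4T07 against 168FARN. The comparison of 4T1 with 168FARN has no Sec23b row.

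The Sec23b change in 4T07 against 67NR ranked as the third lowest of 214 listed. Normalized site reads were 22.9-fold lower in 4T07 than in 67NR, while last-exon reads were 1.54-fold higher. Against 168FARN, site reads in 4T07 were 7.35-fold lower and last-exon reads 1.27-fold higher. In 4T1 against 67NR, site reads were 8.34-fold lower and last-exon reads 1.27-fold higher.

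Sec23b had no row under U1 block, and the peak lists give a partial view. A peak at chr2:144416037-144416492, 29200 bp beyond the site, had exactly the last-exon reads of the tables in 7 of the 8 libraries with a row. In that span 4T1-U1-ASO had 147 and 150 reads, against 258 and 248 in 4T1. Among the 4T1-U1-ASO libraries, a peak at the site itself was present in replicate 1 only, with 9 reads. That is a usage of 5.77% (95% Wilson interval 3.06% to 10.6%, counting error only) in this one library, against 4.44% and 6.77% in 4T1, between which it lay.

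**Figure D2:**
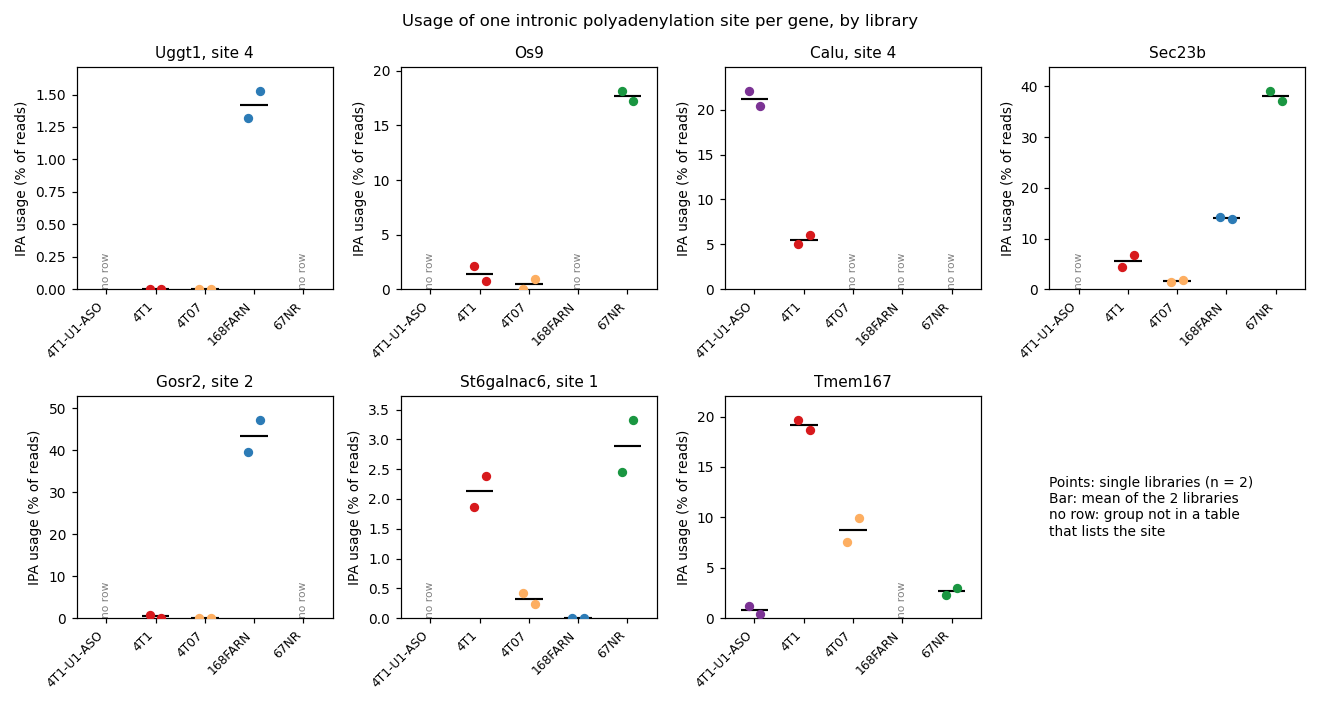
IPA usage in percent (vertical axis) at one site per gene in each library of the 5 groups; points are libraries, bars are means of 2, and "no row" marks groups without a table row for the site. Mean Sec23b usage is 1.72% in 4T07 and 38.1% in 67NR, Gosr2 site 2 stands at 43.3% in 168FARN, and Tmem167 at 0.787% in 4T1-U1-ASO beside 19.2% in 4T1.

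Gosr2 encodes a SNARE protein of the Golgi that acts in fusion of vesicles arriving from the ER. Its 4 sites lie on the minus strand of chromosome 11 (mm9): site 1 at chr11:103558949-103559080, site 2 at chr11:103544527-103545247, site 3 at chr11:103543550-103543781 and site 4 at chr11:103542809-103543068. Sites 2 to 4 were listed in both comparisons with 168FARN and site 1 in that of 4T07, and all were lower in the metastatic line. Gosr2 was not listed against 67NR or under U1 block.

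Site 2 was the main intronic end of Gosr2 in 168FARN. Its reads were 1 and 0 in 4T1 and none in 4T07, against 81 and 92 in 168FARN. Usage was 0.826% and 0 in 4T1 and 0 in both 4T07 libraries, where it could be up to 1.63%, against 39.5% and 47.2% in 168FARN. The authors' deposited table gives -3.97 (SE 0.51) in 4T1, the second lowest of 85 listed sites, and -4.34 (SE 0.53) in 4T07, the fourth lowest of 329.

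Sites 3 and 4 followed the same pattern with fewer reads. Site 3 had none in 4T1 and none in 4T07, against 11 and 17 in 168FARN. Site 4 had 1 and 0 in 4T1 and none in 4T07, against 13 and 15 in 168FARN. Mean usage in 168FARN was 11.2% ± 4.26 at site 3 and 11.1% ± 2.28 at site 4. The authors' deposited table gives -2.40 (SE 0.54) for site 3 and -2.19 (SE 0.54) for site 4 in 4T1, and -2.52 (SE 0.57) and -2.53 (SE 0.57) in 4T07.

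Site 1, the first along the gene, had 0 and 2 reads in 4T07, against 13 and 8 in 168FARN. Usage was 0 and 2.13% in 4T07, against 9.49% and 7.21% in 168FARN, and the authors' deposited table gives -1.73 (SE 0.56). The peak lists also hold 9 and 14 reads at this site in 67NR, the other non-metastatic line.

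Last-exon reads of Gosr2 moved little. They numbered 120 and 117 in 4T1 and 92 and 92 in 4T07, against 124 and 103 in 168FARN. The normalized groups overlapped in both comparisons.

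St6galnac6 encodes a sialyltransferase of the Golgi that adds sialic acid to sugar chains, including those of gangliosides. Its site 1, at chr2:32459306-32459901, and site 2, at chr2:32471802-32472371, lie on the plus strand (mm9). Both sites were used more in 4T1 than in 168FARN and less in 4T07 than in 67NR. The difference between these comparisons was not tested, and they share no library.

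Site 1 of St6galnac6 had 4 and 5 reads in 4T1 and none in 168FARN, where a usage of up to 0.272% is allowed. Its usage in 4T1 was 1.87% and 2.39%. In the other comparison it had 3 and 2 reads in 4T07, against 10 and 11 in 67NR, a usage of 0.327% ± 0.129 in 4T07 and 2.89% ± 0.617 in 67NR. The authors' deposited table gives 2.24 (SE 0.54) in 4T1 against 168FARN and -2.17 (SE 0.50) in 4T07 against 67NR.

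Site 2 was less stable between libraries. It had 15 and 6 reads in 4T1, against 6 and 5 in 168FARN, a usage of 4.76% ± 2.69 in 4T1 and 0.985% ± 0.0706 in 168FARN. It had 5 and 10 reads in 4T07, against 8 and 15 in 67NR, a usage of 0.932% ± 0.334 in 4T07 and 3.22% ± 1.77 in 67NR. The peak lists of 4T07 hold 1 read at this site in each library, fewer than the 5 and 10 used here. The difference of 3.78 percentage points between 4T1 and 168FARN becomes 1.87 without 4T1 replicate 1 and 5.68 without 4T1 replicate 2. The difference of -2.29 points between 4T07 and 67NR becomes -3.55 without 67NR replicate 1 and -1.04 without 67NR replicate 2. The authors' deposited table gives 1.63 (SE 0.50, adjusted p 0.08) and -1.33 (SE 0.46, adjusted p 0.093), both close to the listing limit.

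The last exon of St6galnac6 moved against the usage in both comparisons. It had 210 and 204 reads in 4T1, against 574 and 530 in 168FARN, 2.24-fold lower in 4T1 after normalization. It had 714 and 846 reads in 4T07, against 398 and 320 in 67NR, 2.47-fold higher in 4T07. At site 2 the last-exon change was larger than that of the site in both comparisons on the log2 scale of normalized reads + 0.5, in 4T1 against 168FARN by little, with -1.16 for the last exon and 1.15 for the site.

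Tmem167 encodes a small membrane protein of the Golgi, named kish in the fly, where it is needed for secretion. Its site at chr13:90238583-90238724 on the plus strand (mm9; the table of U1 block starts it at 90238586) was listed under U1 block and in both comparisons with 67NR, each time against the direction of most sites. It had 5 and 2 reads in 4T1-U1-ASO, against 89 and 102 in 4T1. Usage was 1.17% and 0.409% in 4T1-U1-ASO, against 19.6% and 18.7% in 4T1.

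The authors' deposited table gives -4.23 (SE 0.53) for Tmem167 in 4T1-U1-ASO against 4T1, the second lowest of 1561 listed sites. Normalized site reads were 41.1-fold lower in 4T1-U1-ASO, and last-exon reads were 1.33-fold lower. The site fold becomes 72.4 without 4T1-U1-ASO replicate 1 and 28.7 without 4T1-U1-ASO replicate 2, as it rests on few treated reads. It was the only listed site of these genes that was used less under U1 block.

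Between lines, Tmem167 was used more in the metastatic lines than in 67NR. Reads at the site numbered 89 and 102 in 4T1, 30 and 52 in 4T07, and 15 and 18 in 67NR. Usage was 19.6% and 18.5% in 4T1 and 7.59% and 9.90% in 4T07, against 2.31% and 3% in 67NR. The authors' deposited table gives 2.68 (SE 0.37) in 4T1, the third highest of 122 listed sites, and 1.57 (SE 0.39) in 4T07. The order of mean usage was 4T1-U1-ASO, 67NR, 4T07 and 4T1 from low to high, and no neighbours in it overlapped. This order, too, was taken from the values of a listed site and was not tested.

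No table lists Tmem167 against 168FARN, but the peak lists show 85 and 55 reads at the site in 168FARN. Scaled to the total of each list (RPM), these are 29.6 and 18.2 in 168FARN, beside 35.6 and 36.5 in 4T1 and 10.9 and 16.7 in 4T07. By this count 168FARN, which is non-metastatic, lay above both 4T07 libraries and below both 4T1 libraries. The last exon of Tmem167 in 168FARN was not analysed here, so this is a level of site reads and not usage.

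The Tmem167 site was the only one of the 19 with a peak in all 10 lists, so only for it could sites of a like pattern be sought. Among 174 listed sites with peaks in all lists, that of Eif4a1, a translation initiation helicase, at chr11:69481332-69481557, had the highest Pearson correlation of log2(RPM + 1) with it, r = 0.916 over 10 libraries. The next was in Med1, a subunit of the Mediator complex, at chr11:98031219-98031599, with r = 0.845. The Med1 site had 1.54 and 0.757 RPM in 4T1-U1-ASO, 6.80 and 3.94 in 4T1 and 3.88 and 4.20 in 67NR. It was thus low under U1 block but overlapped between 4T1 and 67NR. Tmem167 did not, with 35.6 and 36.5 RPM in 4T1 and 4.48 and 12.6 in 67NR. Eif4a1 did not either. Its site had 2.31 and 1.13 RPM in 4T1-U1-ASO, at least 19.3 in both 4T1 libraries and 3.88 and 7.004 in 67NR. Like Tmem167, it was higher in 168FARN (9.39 and 5.29 RPM) than in 4T07 (3.99 and 5.15 RPM). The pattern was thus not particular to Tmem167. The 10 libraries share lines and treatment, and the totals of 67NR replicate 2 are incomplete, so the values are descriptions.

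**Figure D3:**
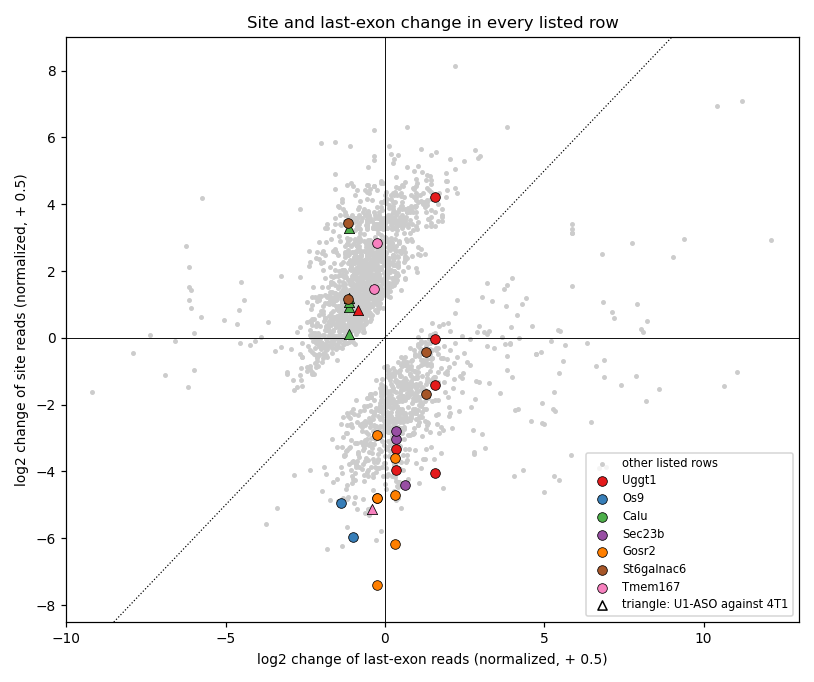
Log2 change of site reads (vertical axis) against log2 change of last-exon reads (horizontal axis), both from normalized reads + 0.5, for all 2311 rows, with rows of the 7 genes in colour and triangles for 4T1-U1-ASO against 4T1; on the dotted diagonal both change alike. Rows of Gosr2, Sec23b and Tmem167 lie close to the vertical axis, and those of Os9, St6galnac6 and Calu lie away from it.

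Across all 31 rows, the site changed more than the last exon in 23, beside 71.2% of all 2311 rows. The last exon changed by more than 1 log2 unit in 15 of the 31 rows, 5 of them the Calu rows, beside 39.8% of all rows. The median deposited log2 fold change of these rows in the authors' deposited table was 1.85 in 4T1-U1-ASO against 4T1, the same as the 1.85 of all listed sites there. It was -2.54 in 4T1 against 67NR, -2.17 in 4T07 against 67NR, -2.19 in 4T1 against 168FARN and -2.52 in 4T07 against 168FARN, where the medians of all listed sites in the authors' deposited table were -1.69, -1.79, -1.68 and -1.59. In that order the medians of these genes rest on 3, 5, 7 and 9 rows, the 7 and the 9 from 3 genes each. The genes were chosen from the same deposited values, so the medians are descriptions and their distance from those of all sites was not tested.

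Other genes of the pathway came from lists of 188 gene names. In the COPII and ER-associated degradation lists some genes stand under an older and a current name, so names outnumber genes. Under U1 block, 24 of them had 28 listed sites, 27 higher and 1 lower in 4T1-U1-ASO, where 87.6% of all 1561 listed sites were higher. The authors' deposited table gives these sites a median log2 change of 1.90, beside 1.85 for all listed sites. The tables hold listed sites only, so the share of all measured genes with a listed site is not given here. In the COPII list 7 of 29 names were listed, with 7 sites, all higher as most listed sites were, while Sec23b itself had no row there. The median of the COPII sites in the authors' deposited table was 1.91, beside the same 1.85. In the list of ER folding 9 of 34 names were listed, with 10 sites all higher. In that of ER-associated degradation 5 of 28 names were listed, with 6 sites higher and 1 lower. Of the SNAREs, tethers and COPI genes 3 of 62 were listed, with 4 sites all higher, and of 12 genes of the unfolded protein response none. None of the 4 other CREC family genes, to which Calu belongs, and none of 19 other sialyltransferases was listed.

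The largest increases were in Arf1, a GTPase that recruits the COPI coat, and Nploc4, a cofactor of the p97 segregase. The Arf1 site, at chr11:59028928-59029342, had 14 and 15 reads in 4T1-U1-ASO, against 0 and 2 in 4T1, and the authors' deposited table gives 3.57 (SE 0.67). The Nploc4 site, at chr11:120278163-120278550, had 9 and 6 reads in 4T1-U1-ASO and none in 4T1, and the authors' deposited table gives 3.31 (SE 0.76). The single decrease was in Herpud2, a relative of the ER stress protein Herpud1, with 3 and 4 reads in 4T1-U1-ASO, against 3 and 12 in 4T1. Its usage was 1.57% ± 0.283 in 4T1-U1-ASO and 7.96% ± 5.89 in 4T1, with 1.37% and 1.77% in the treated libraries, against 3.80% and 12.1% in the 4T1 libraries. The last exon of Herpud2 had more reads in 4T1-U1-ASO, 216 and 222, against 76 and 87 in 4T1, so part of the lower usage came with the last exon.

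Between lines, these other genes were listed in the comparisons of 4T07 and in none of 4T1. Against 67NR, 3 genes with 4 sites were listed, all lower in 4T07, as were 82.2% of all listed sites. They include Herpud2, with a usage of 2.21% ± 0.216 in 4T07 against 14.7% ± 1.02 in 67NR, and Txndc11, a thioredoxin-domain protein of the ER, at 6.19% ± 0.147 in 4T07 and 20.4% ± 1.57 in 67NR. Against 168FARN, 6 genes with 7 sites were listed, all lower in 4T07, as were 79.6% of all listed sites. They include St3gal1, another sialyltransferase, at 1.05% ± 0.421 in 4T07 and 8.68% ± 2.48 in 168FARN, and Copg1, a COPI coat subunit, at 1.75% ± 0.583 in 4T07 and 8.25% ± 0.218 in 168FARN. The St3gal1 site had 13 and 8 reads in 4T07, against 9 and 12 in 168FARN. Its last exon had 951 and 1055 reads in 4T07, against 121 and 103 in 168FARN, so St3gal1 usage differed through the last-exon reads. The Copg1 site itself had fewer reads, 11 and 19 in 4T07, against 58 and 56 in 168FARN.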

How the data were processed

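The authors deposited, per the file headers, tables of IPA sites with normalized read signals for site and last exon in each library, and, for each site, the log2 fold change (with SE), the test statistic or score, the p-value and its adjusted form; the largest adjusted p listed is 0.1. They also deposited peak lists with a read count per peak. Per the submitters' processing notes, the tools were DESeq2 1.4.5, bedtools 2.17.0, SAMtools 1.1 and Bowtie2 2.2.5, on mm9, with no roles given. Sites are intronic on the authors' word.

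Signals were whole multiples of 1 read in every column (100% of values within 0.1 read), and the reads so recovered gave usage. Where a peak was present, its reads equalled the table's at 81.7% to 95.4% of sites. Deposited signs were turned for the tables against 67NR, so that changes are the first-named group over the second. A usage of 0 has an upper limit of 3 reads over both libraries; intervals and limits cover counting error only, and PCR reads are not independent molecules.

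As a check, edgeR 4.0.16 in R 4.3.3 (quasi-likelihood, authors' scaling, at least 10 reads, Benjamini-Hochberg adjusted p under 0.05) tested site relative to last exon over all listed rows. It treats site and last exon of a library as separate, and called 2311 of 2311 rows, with 31 of 31 of these genes. The sites were selected by the authors on the same reads, so this is not independent evidence. DESeq2 1.42.0, stricter deposited limits, TMM scaling, a replicate block, no filter, each library left out, summed reads and peak-list reads were alternatives.

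All 31 rows of the 7 genes are described. Of other pathway genes, those with the largest deposited change in each comparison and direction, at most 2, are named. The members and lists were chosen with earlier results of these data known. The rule for sites of a like pattern was narrowed to peaks in all lists after the data were seen, because absent peaks were not zeros. No cell type markers were checked, since gene levels outside listed genes were not used here, and no sequences are shown, since no mm9 genome was used.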

Additional observations from a re-analysis of the deposited data

Results flagged for a closer look

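St6galnac6 was set apart because its sites moved in opposite directions in 2 comparisons of a metastatic with a non-metastatic line. At site 1 the usage difference was 2.13 percentage points in 4T1 against 168FARN and -2.56 points in 4T07 against 67NR. At site 2 it was 3.78 points in 4T1 against 168FARN and -2.29 points in 4T07 against 67NR. Every library of the first-named line lay on the same side of every library of the second in each comparison. The same held in 99.6% of all 2311 listed rows, so it adds nothing to the listing. The difference between the comparisons was not tested. Normalized last-exon reads of the gene moved the other way, averaging 226 in 4T1 and 506 in 168FARN, and 828 in 4T07 and 335 in 67NR, and their part in the result was not tested.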

How the results depend on the processing

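With stricter deposited limits, the sites of these genes higher in 4T1 against 168FARN numbered 1 at an adjusted p of at most 0.05 and 1 at 0.01, against 2 at 0.1. Those higher in 4T07 against 168FARN numbered 0 at both, against 1. The other directional counts stayed within 1.5 times. No usage difference changed sign among 124 that left out a library, 31 from summed reads and 5 from peak-list reads. The groups overlapped in none of the 31 rows, so leaving out a library or summing reads could not change a sign. The 5 from peak lists used the same reads as the main values. Unchanged signs therefore show nothing about stability. In edgeR, leaving out a library gave 1217 to 1496 calls of 1561 in 4T1-U1-ASO against 4T1 (5 to 7 of 7 for these genes), 121 to 122 of 122 in 4T1 against 67NR (3 to 3), 209 to 212 of 214 in 4T07 against 67NR (4 to 5 of 5), 80 to 85 of 85 in 4T1 against 168FARN (7 to 7) and 310 to 315 of 329 in 4T07 against 168FARN (8 to 9 of 9). The calls lost there, at an adjusted p between 0.0602 and 0.223, were Uggt1 site 2, Calu site 2, St6galnac6 site 2, Gosr2 site 1 and Uggt1 site 1. TMM, no filter, DESeq2 and the replicate block each called every row (1561, 122, 214, 85 and 329), as edgeR did; with all rows called, equal counts show nothing about stability. Deviations of same-numbered libraries correlated at -0.03 to 0.18, and they share only a number.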
